A study of Homo sapiens with 6 samples.

Results

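The genes described are 6 transcription factors of the epithelial-mesenchymal transition (EMT), namely SNAI1, SNAI2, ZEB1, ZEB2, TWIST1 and TWIST2, with VIM, the vimentin gene, and 3 cadherin genes, CDH1, CDH2 and CDH11. They are 10 of 19775 genes with a probe set of their own on the array. Every probe set that the platform annotation gives to exactly 1 of these symbols was taken, which came to 24 of 54675 probe sets. The cells were MDA-MB-231, an estrogen receptor-negative human breast cancer cell line. One group was transfected with control siRNA (3 arrays) and the other with LSD1 siRNA (3 arrays), in 2 rounds over 6 days, after which total RNA was taken. Both groups are of 1 cell line and both went through transfection; the siRNA sequences are not given in the sources used here. The labels call the arrays biological replicates of each group.

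In EMT, epithelial cells loosen their junctions and take on a migratory, mesenchymal character. E-cadherin, encoded by CDH1, holds epithelial cells together, and its loss together with a gain of N-cadherin (CDH2), cadherin-11 (CDH11) and the intermediate filament protein vimentin is the usual mark of the change. SNAI and ZEB proteins are zinc finger repressors that bind E-box sequences, among them those of the CDH1 promoter, and TWIST proteins are basic helix-loop-helix factors. LSD1, the histone demethylase encoded by KDM1A, is a known corepressor of SNAI1 and SNAI2, which bind it through their N-terminal SNAG domain. MDA-MB-231 is known as a mesenchymal-like line with high vimentin and little E-cadherin.

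Of the 10 genes, 5 matched the RefSeq promoter table (GRCh38.p14), namely ZEB1, ZEB2, VIM, TWIST2 and CDH2, with 12 start sites in all. The E-box bound by SNAI and ZEB proteins, CAGGTG on either strand (CACCTG read on the other), was searched in the 250 bases before each start. It was in 2 of the 12 windows, both of ZEB1, and in 17.5% of all 35116 windows of that length. The window of ZEB2, which had a probe set that rose, is given with that of the first ZEB1 start, since no ZEB1 set passed the test. Most of the 12 windows are of ZEB1, and most ZEB1 windows, like that of ZEB2, do not hold the E-box. The 2 printed windows therefore give no contrast between the genes. Capitals mark the E-box, which begins 57 bases before that ZEB1 start; the ZEB2 window, with a GC content of 48.0% against 59.2%, does not hold those letters.

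ZEB2, chr2:144520120-144520369, minus strand: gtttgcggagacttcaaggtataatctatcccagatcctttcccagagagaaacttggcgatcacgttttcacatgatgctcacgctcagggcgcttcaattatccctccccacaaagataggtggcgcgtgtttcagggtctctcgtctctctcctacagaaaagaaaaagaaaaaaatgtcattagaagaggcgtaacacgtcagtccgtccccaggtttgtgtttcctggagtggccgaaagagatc

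ZEB1, chr10:31318167-31318416, plus strand: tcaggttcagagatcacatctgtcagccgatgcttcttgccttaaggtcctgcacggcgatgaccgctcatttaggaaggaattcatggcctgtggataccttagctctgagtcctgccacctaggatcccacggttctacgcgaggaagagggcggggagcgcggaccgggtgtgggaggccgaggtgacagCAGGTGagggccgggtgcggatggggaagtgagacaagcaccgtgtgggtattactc

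A match describes the sequence only. KDM1A, the siRNA's target, had signals of 2540, 2493 and 2295 on the control arrays and 290.5, 184 and 227 on the LSD1 siRNA arrays. The groups lay far apart (log2 change -3.32, limma adjusted p = 1.46e-08). The markers of the line were high in both groups: VIM, CD44, EGFR, CAV1, MSN and AXL summed to between 98086 and 108775 per control array and between 96641 and 105077 per LSD1 siRNA array. Within the sum, MSN changed by 0.60 in log2 units (limma adjusted p = 4.60e-05) and EGFR by -0.25 (limma adjusted p = 0.0191). The other 4 did not pass. ESR1, the estrogen receptor gene, had a mean signal of 59.1 with control siRNA and 75.7 with LSD1 siRNA. It is 1 of 8 luminal markers, and the others were not all dim: KRT18 had a control mean of 16731. The KRT18 and KRT8 values come from sets with an x suffix, whose probes may cross-hybridise. The 8 summed to between 26284 and 31912 per control array and between 25275 and 27267 per LSD1 siRNA array. Of the 8, 1 rose and 2 fell past limma's adjusted threshold. Of 13 leukocyte, fibroblast and endothelial markers with a probe set, 8 were above the filter described below, and of the 8, 0 passed limma's adjusted threshold and 0 had an unadjusted p under 0.05. Their summed signals on control and LSD1 siRNA arrays were 235 to 269 against 183 to 315 for leukocytes, 547 to 632 against 568 to 751 for fibroblasts, and 249 to 285 against 208 to 254 for endothelium. LUM, a fibroblast matrix gene, was below the filter, so it was not among the markers tested. It was at 0.518 to 4.58 on the control arrays and 86.3 to 101 on the LSD1 siRNA arrays. DCN, another fibroblast matrix gene and above the filter, was at 32.8 to 49.3 and 12.7 to 46.6. The part of such cells in the results was not tested. Since RNA was taken from whole cultures, fewer cells with a transcript and less of it per cell cannot be told apart.

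The SNAI2 set and 1 ZEB2 set rose with LSD1 siRNA, while the other tested ZEB2 set, at -0.14, did not pass. For CDH11 2 sets fell, and no set of CDH1, VIM or ZEB1 passed the test. Signals are linear MAS5 values, scaled alike on each array. Values were taken as log2(signal + 15), and a probe set was tested where the mean of these over the 6 arrays exceeded the 40th percentile of all probe sets, a level that a signal of about 28 gives on every array. Because the filter acts on log2 values, a set with unequal arrays can have a mean signal above 28 and still be left out. Of the 24 probe sets 15 passed this filter and 9 did not, TWIST1, TWIST2 and CDH2 having none above it. At an adjusted p of 0.05 (limma, Benjamini-Hochberg over 27079 probe sets, two-sided), 2 of the 15 rose, 2 fell and 11 did not pass. Of all probe sets tested, 34.4% passed, 17% higher and 17.4% lower, so the members' 4 of 15 is not above the background. Without control replicate 3, 4 sets rose, and 1 set fell in place of 2 without control replicate 2, LSD1 siRNA replicate 2 or LSD1 siRNA replicate 3. The median log2 change was -0.093 for the 15 and -0.019 for all tested. Non-overlapping groups were found for 6 of the 15 sets and for 46% of all probe sets tested.

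**Figure D1:**
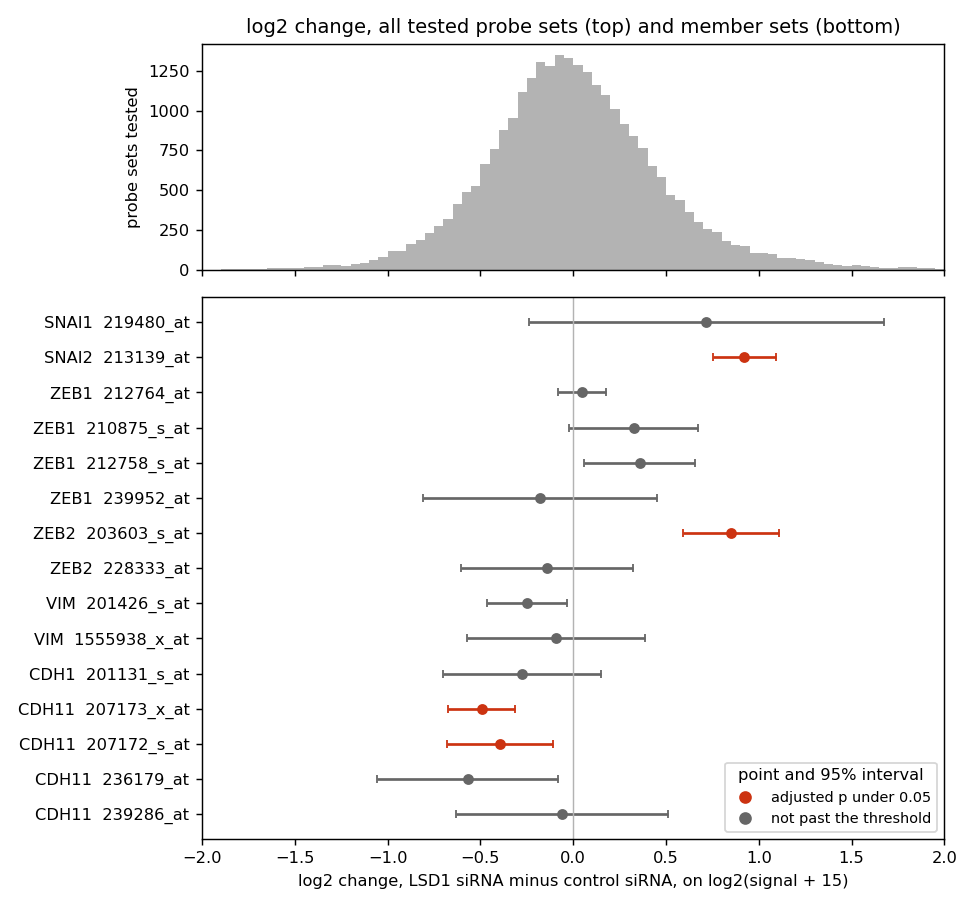
Top: number of tested probe sets in each bin of log2 change (LSD1 siRNA minus control siRNA; bins of 0.05, shown between -2 and 2). Bottom: log2 change of the 15 tested member sets, each point with its 95% limma interval, red where the adjusted p is under 0.05. SNAI2 (0.92) and 1 ZEB2 set (0.85) lie to the right and 2 CDH11 sets (-0.49 and -0.40) to the left; the SNAI1 interval, from -0.24 to 1.67, is the widest.

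SNAI2, which encodes the repressor Slug, has 1 probe set (213139_at). It read 1190.0, 1026 and 1143 with control siRNA and 2256, 2067 and 2076 with LSD1 siRNA. Every LSD1 siRNA array was above every control array, and the lowest of them exceeded the highest control by more than the spread within either group. The mean rose from 1120 ± 84.5 to 2133 ± 106 (SD, n = 3), which is 191% of control. Taken as for all sets on log2(signal + 15), this is a change of 0.92 ± 0.078 (standard error; limma adjusted p = 3.51e-06). Under every alternative tried for this probe set it stayed between 0.86 and 0.97 and past the threshold.

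SNAI1, which encodes Snail, also has 1 set (219480_at), and it is dim. It read 60.04, 12.2 and 56.9 with control siRNA and 37.8, 123 and 74.6 with LSD1 siRNA. The groups overlap, with LSD1 siRNA replicate 1 below 2 of the control arrays. The difference was 0.72 with a 95% interval of -0.24 to 1.67 (limma adjusted p = 0.239), so these arrays fix neither its size nor its direction. Leaving out 1 array moved the value to between 0.24 (control replicate 2 out) and 1.07 (LSD1 siRNA replicate 1 out), and adding a constant of 60 or 1 in place of 15 gave 0.42 and 0.99; it passed under none of these.

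ZEB2, also called SIP1, has 5 sets, of which 2 were tested. Set 203603_s_at read 196, 199 and 225 with control siRNA and 378, 371 and 403 with LSD1 siRNA. The groups are clearly apart, and the mean rose from 206 ± 16.3 to 384 ± 16.5 (SD, n = 3), or 0.85 ± 0.12 in log2 units (standard error; limma adjusted p = 0.000162). The other tested set, 228333_at, read 119, 108 and 113 with control siRNA and 107, 130 and 74.4 with LSD1 siRNA. There the groups overlap, with a log2 difference of -0.14 and an interval of -0.61 to 0.32. The change of the first set exceeded that of the second by 0.99, and the log2 ratio of the sets did not overlap between groups (exact two-sided permutation p = 0.1, the smallest that 3 against 3 arrays allow). This was the only one of 14 pairs of sets of 1 gene whose ratios did not overlap, and its adjusted p over the 14 was 0.583. With 0.1 the smallest permutation p possible, no pair could pass 0.05, so this test cannot decide whether the sets differ. Averaged over all 5 sets, 3 of them below the filter, ZEB2 was at 0.049 (limma adjusted p = 0.884), so the rise rests on 1 set. Which transcripts of ZEB2 each set detects is not given in the sources used here.

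ZEB1, the other ZEB repressor, has 4 sets, all tested, and 0 passed limma's adjusted threshold, with 1 at an unadjusted p under 0.05. The brightest, 212764_at, read 3538, 3380 and 3535 with control siRNA and 3556, 3600 and 3636 with LSD1 siRNA. The groups just miss each other, but the log2 difference was 0.046 with an interval of -0.082 to 0.17. Sets 210875_s_at and 212758_s_at gave 0.33 (adjusted p = 0.139) and 0.36 (limma adjusted p = 0.0628).

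The 2 ZEB1 sets with the larger differences gave other results when a control array was left out. On 212758_s_at the control arrays read 349, 424 and 517 and the LSD1 siRNA arrays 507, 530 and 615; on 210875_s_at they read 437, 556 and 692 against 665, 846 and 600. Control replicate 1 was lowest on both and control replicate 3 highest. Without control replicate 3 both passed, at 0.49 (limma adjusted p = 0.0112) and 0.49 (adjusted p = 0.0282); without control replicate 1 they were at 0.22 (adjusted p = 0.222) and 0.16 (adjusted p = 0.455). Control replicate 1 had a 3' to 5' signal ratio of 1.74 for ACTB, a usual measure of RNA integrity, where the other 5 arrays lay between 1.33 and 1.43. For GAPDH its ratio was 1.03, where the other 5 lay between 0.92 and 0.98. Beyond the values without that array, its part in the ZEB1, VIM and CDH1 results was not tested. The fourth set, 239952_at, was dim (means 71.0 and 64.7) and its groups overlap.

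**Figure D2:**
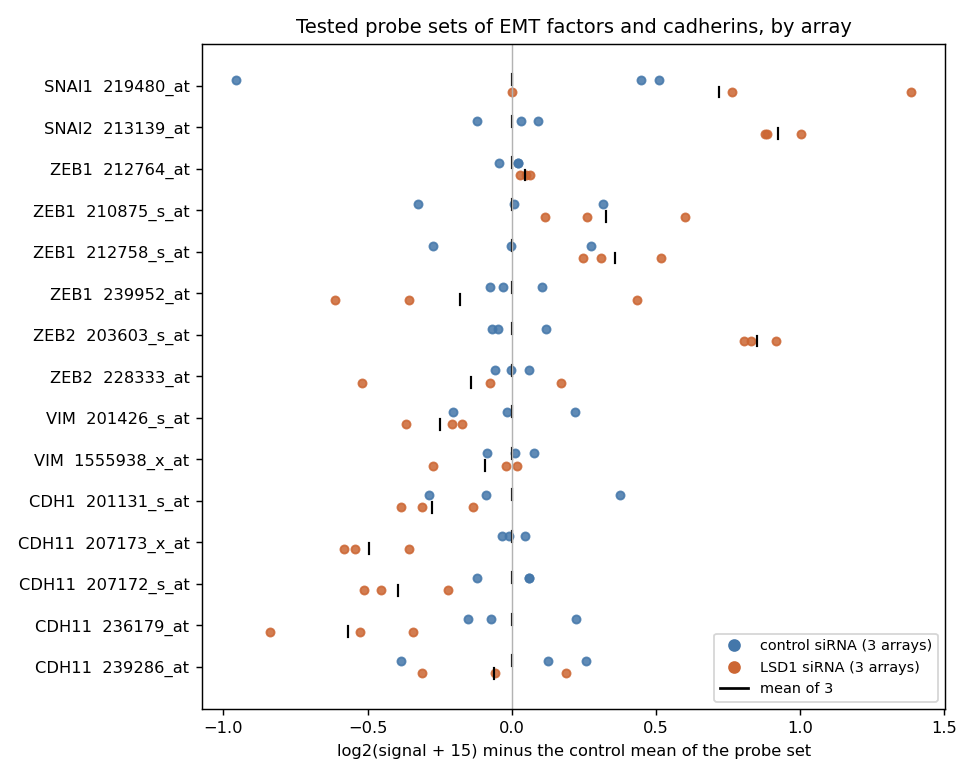
Each point is 1 array: log2(signal + 15) minus the control mean of that probe set, for the 15 tested sets (rows), control siRNA in blue and LSD1 siRNA in orange, with the mean of 3 as a black tick. The groups separate for SNAI2, ZEB2 203603_s_at and 3 CDH11 sets and, by a narrow margin, ZEB1 212764_at; the control arrays spread most for SNAI1.

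VIM and CDH1, the classical mesenchymal and epithelial markers, both had lower means with LSD1 siRNA, and neither passed. The main VIM set, 201426_s_at, read 37928, 32194.5 and 28271 with control siRNA and 25223, 28868 and 28224 with LSD1 siRNA. Control replicate 1 was highest and control replicate 3 lay within the LSD1 siRNA arrays. The log2 difference was -0.25 with an interval of -0.46 to -0.035 (limma adjusted p = 0.0696). It was -0.14 without control replicate 1 (adjusted p = 0.212), -0.35 without control replicate 3 (limma adjusted p = 0.00694) and -0.10 after quantile normalization. The second VIM set, 1555938_x_at, had means of 76.0 ± 5.13 and 70.6 ± 9.09 (SD, n = 3), and its groups overlap. The x suffix marks a set whose probes may cross-hybridise.

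CDH1 was dim in both groups. Set 201131_s_at read 128, 149 and 211 with control siRNA and 125, 144 and 119 with LSD1 siRNA. The groups overlap, and control replicate 3 alone stands high. The log2 difference was -0.28 with an interval of -0.70 to 0.15 (limma adjusted p = 0.314), and it was -0.088 without control replicate 3 and -0.42 without control replicate 1. Set 201130_s_at was below the filter, with 26.9, 22.6 and 32.5 against 5.19, 15.2 and 24.0. No rise of CDH1 was detectable, and the upper bound of the interval at the tested set is 0.15.

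CDH11, a cadherin of mesenchymal cells and bone-forming cells, fell. Set 207173_x_at read 1194, 1216 and 1262 with control siRNA and 953, 813 and 835 with LSD1 siRNA. All LSD1 siRNA arrays were lower, and the mean went from 1224 ± 34.8 to 867 ± 75.3 (SD, n = 3), which is 70.8% of control. This is -0.49 ± 0.082 in log2 units (standard error; limma adjusted p = 0.000580), which stayed past the threshold under every alternative tried. Set 207172_s_at, which carries no x suffix, read 276, 315 and 315 against 257, 217 and 207, again without overlap. Its change of -0.40 passed (limma adjusted p = 0.0352) but was lost when 1 array was left out: control replicate 2 (0.102) or 3 (0.0874), or LSD1 siRNA replicate 2 (0.102) or 3 (0.118). Set 236179_at read 128, 95.4 and 102 against 70.1, 53.6 and 81.7, with no overlap and a value of -0.57 that did not pass (limma adjusted p = 0.0678). The fourth set, 239286_at, had means of 69.5 and 65.4 with overlapping groups.

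CDH2, TWIST1 and TWIST2 had only sets below the filter, so no test of them was made in the main comparison. CDH2 set 203440_at read 8.003, 7.41 and 26.6 with control siRNA and 40.8, 57.6 and 37.9 with LSD1 siRNA. Every LSD1 siRNA array was higher, but at signals near the filter; with no filter the log2 change was 1.11 (limma adjusted p = 0.0458). The second CDH2 set, 203441_s_at, read 21.0, 14.1 and 27.1 against 32.8, 20.6 and 36.5, which overlap, with 0.33 and an adjusted p = 0.552 (limma, no filter). TWIST1, with 1 set, read 5.53, 1.22 and 3.13 against 0.66, 21.3 and 2.51, so a single array exceeded the rest. TWIST2 set 229404_at read 1.67, 11.1 and 1.87 against 16.4, 24.6 and 17.0, higher on every LSD1 siRNA array (limma adjusted p = 0.0701 with no filter), while its other set, 1554163_at, overlapped. The deposited values carry no detection calls, so whether these transcripts were present was not settled.

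**Figure D3:**
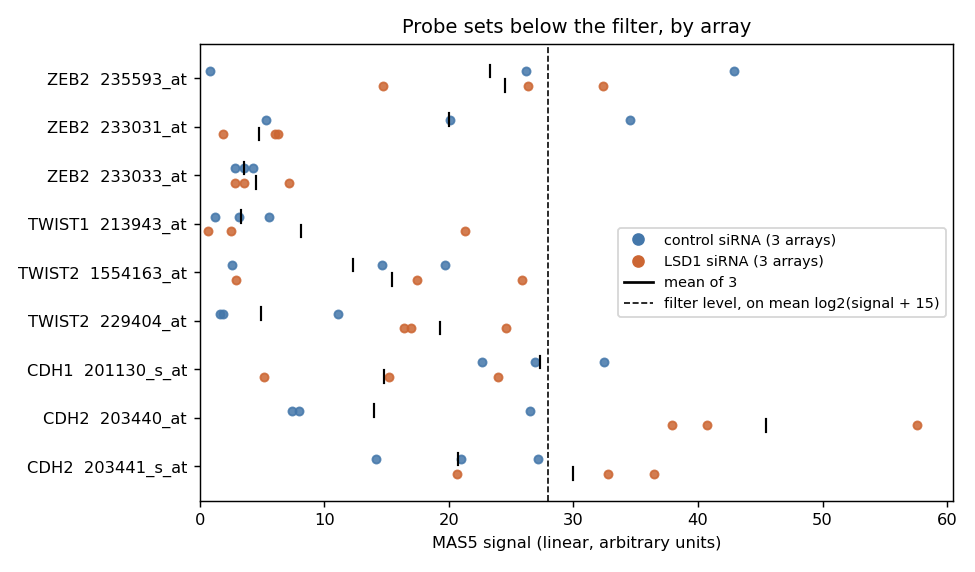
Linear MAS5 signal of the 9 member sets below the filter (rows), 1 point per array, control siRNA in blue and LSD1 siRNA in orange; black ticks are means of 3 and the dashed line is the signal of 28 that corresponds to the filter, which was applied to the 6-array mean of log2(signal + 15) and not to the mean signal. For CDH2 203440_at the LSD1 siRNA arrays, at 37.9 to 57.6, are all above the control arrays, and most other points lie under the line.

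The genes that work with these factors and cadherins were counted from fixed lists, with 1 probe set per gene, the one with the highest mean and no x suffix where there was a choice. In that gene comparison 41% of 13822 genes passed, 19.8% higher and 21.3% lower, and the median of all genes was -0.019. Of the 7 member genes tested, SNAI2 and ZEB2 rose, CDH11 fell and SNAI1, ZEB1, VIM and CDH1 did not pass. Of 16 partners and corepressors of SNAI, ZEB and TWIST proteins, 1 rose and 10 fell, KDM1A included, with a median log2 change of -0.27. KDM1A is the siRNA's target, so its fall was fixed by the design, and the list was not tested as a set. TCF4, a helix-loop-helix partner of TWIST proteins also called E2-2, rose from 140.5 ± 10.2 to 373 ± 49.9 (SD, n = 3), which is 1.31 in log2 units (limma adjusted p = 1.80e-05). The Polycomb methyltransferase gene EZH2 changed by -0.98 and TCF3, another helix-loop-helix partner, by -0.79, though TCF3 was at -0.076 averaged over its sets (limma adjusted p = 0.732). CTBP1, a corepressor that binds ZEB proteins, changed by -0.27 and its relative CTBP2, at -0.028, did not pass; these 2 were chosen after their values were seen.

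Of 9 genes that act on the turnover or activity of the SNAI1 protein, 1 rose and 4 fell, with a median of -0.033. Over all genes 19.8% rose and 21.3% fell. FBXL14 and FBXL5 encode F-box proteins that mark SNAI1 for degradation; FBXL14 changed by -0.65 (-0.21 averaged over its sets, limma adjusted p = 0.440) and FBXL5 rose by 0.41. CTDSP1, a phosphatase gene, changed by -0.60 and LATS2, a kinase gene of the Hippo pathway, by -0.31, which became -0.52 averaged over its sets. Of 5 tested genes among other EMT-linked transcription factors, 0 passed limma's adjusted threshold and 1 had an unadjusted p under 0.05. They were ID1 (0.12), ID2 (0.17), ID3 (-0.19), HAND1 (0.10) and PRRX1 (-0.043); the 6 others with a probe set, among them SNAI3, FOXC2 and GSC, were below the filter.

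Of 16 tested epithelial genes known to be repressed by SNAI, ZEB and TWIST proteins, 4 rose and 2, KRT18 (-0.45) and DSP (-0.32), fell, with a median of 0.16; 41% of all genes passed, so 6 of 16 is not above the background. The 4 were the claudin genes CLDN1 (1.45), CLDN4 (1.01) and CLDN7 (0.98) and the cell polarity gene PATJ (1.203); CLDN4 was at 0.58 averaged over its sets. EPCAM, an epithelial adhesion gene, was at -0.015 and OCLN, the occludin gene, at -0.069, and neither passed. TJP3, a tight junction gene that did not pass, had means of 26.5 with control siRNA and 41.4 with LSD1 siRNA. It too counts in the median, and was kept by the filter through the LSD1 siRNA group. Of 9 epithelial transcription and splicing factors, 2 rose and 0 fell, none falling at an unadjusted limma p under 0.05 either, with a median of 0.014: EHF (3.72, or 1.62 averaged over its sets) and ELF3 (0.39, or 0.10 averaged over its sets, limma adjusted p = 0.570). The ELF3 call (limma adjusted p = 0.0324) was lost on leaving out control replicate 1 (0.0942) or 2 (0.0690), on leaving out LSD1 siRNA replicate 1 (0.103), 2 (0.0827) or 3 (0.0502), with no filter (0.0681) and with the replicate block (0.0544). OVOL1 (-0.17), GRHL1 (0.014) and ESRP1 (0.14) did not pass. Of 15 mesenchymal EMT genes, 4 rose and 1, TAGLN (-0.61), fell, again not above the 41% of all genes that passed. Their median was 0.35, which takes in the 10 genes that did not pass. SPARC, a matrix gene among the 10, had means of 19.7 with control siRNA and 51.2 with LSD1 siRNA. It was kept by the filter through the LSD1 siRNA group. The 4 were the matrix genes TNC (1.53, or 0.72 averaged over its sets) and FN1 (0.82), the collagen crosslinking enzyme gene LOX (1.08) and the fibronectin receptor gene ITGA5 (0.88).

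Among the other cadherins 6 of 17 with a probe set were tested, and 1 rose. CDH3, which encodes P-cadherin, a cadherin of basal epithelium, rose from 14.6 ± 4.91 to 97.7 ± 24.7 (SD, n = 3), with control arrays at 11.3 to 20.2 and LSD1 siRNA arrays at 75.1 to 124. In log2 units this is 1.92 ± 0.30 (standard error; limma adjusted p = 0.000327), and 1.07 with a constant of 60. CDH3 passed the filter through the LSD1 siRNA group, since its control mean is below it. Of 11 catenin and adherens junction genes, 3 rose and 2 fell, with a median of 0.10, where 19.8% of all genes rose and 21.3% fell. JUP, the plakoglobin gene, rose by 1.02, NECTIN3 by 0.46 (0.19 averaged over its sets, limma adjusted p = 0.0985) and AFDN, the afadin gene, by 0.32, while PKP4 changed by -0.61 and NECTIN2 by -0.60. The catenin genes CTNNA1, at 0.0999, and CTNNB1, at 0.029, did not pass.

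Of 8 genes of cadherin cleavage and turnover, 4 rose and 0 fell, also 0 at an unadjusted limma p under 0.05, with a median of 0.35. Of all genes 41% passed and 19.8% rose, and the list as a set was not tested. The stromelysin gene MMP3 rose by 2.06, the gamma-secretase subunit gene NCSTN by 0.49 (0.28 averaged over its sets, limma adjusted p = 0.213), FURIN, a proprotein convertase gene, by 0.46 and PSEN2 by 0.23. FURIN and PSEN2 were lost in the unmoderated test (adjusted p = 0.0715 and 0.0891). FURIN was also lost without control replicate 1 (limma adjusted p = 0.0789) or 3 (0.0803) or LSD1 siRNA replicate 1 (0.0766) or 3 (0.110), and PSEN2 without control replicate 1 (0.119) or 3 (0.0949) or LSD1 siRNA replicate 1 (0.176) or 2 (0.0848). ADAM10, which encodes an E-cadherin sheddase, was at 0.15 and did not pass. Of 10 partners of vimentin and linkers of intermediate filaments, 4 fell and 0 rose, with a median of -0.21. At an unadjusted limma p under 0.05 also 0 rose. Of all genes 41% passed and 21.3% fell, and this list too was not tested as a set. EVPL, the envoplakin gene, changed by -0.89, the lamin genes LMNB1 by -0.88 and LMNA by -0.23, and the linker gene PLEC by -0.23. LMNA was at 0.043 averaged over its sets, the opposite sign, and PLEC at -0.49. The LMNA call was lost without control replicate 1 (limma adjusted p = 0.0817) or 2 (0.101) or LSD1 siRNA replicate 1 (0.0828) or 3 (0.0637), and that of PLEC without control replicate 2 (0.0629) or 3 (0.0607) or LSD1 siRNA replicate 2 (0.0661) or 3 (0.0801).

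**Figure D4:**
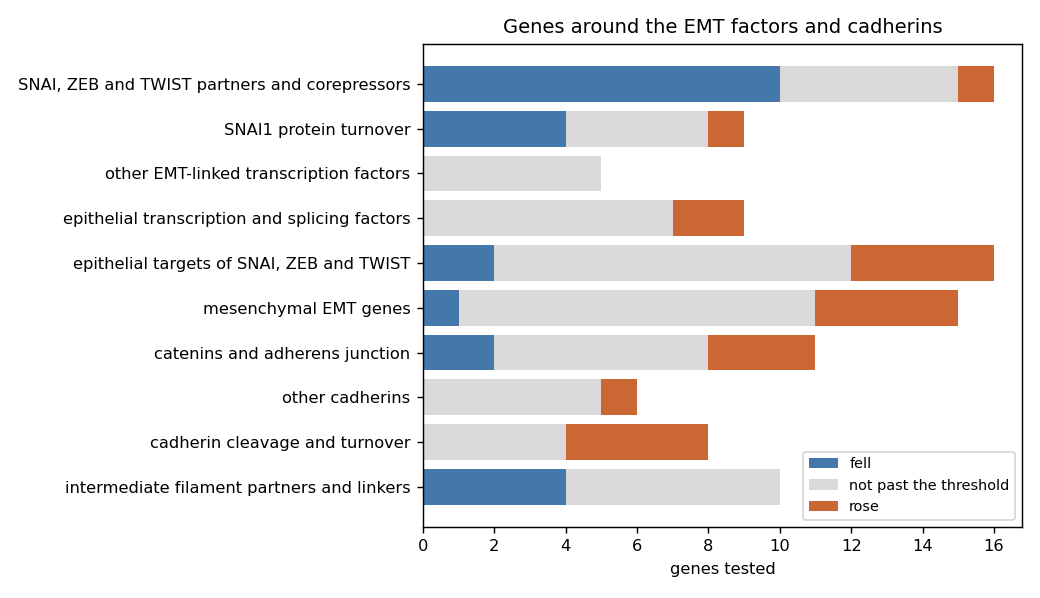
Number of tested genes in each of the 10 fixed lists that fell (blue), did not pass (grey) or rose (orange) at an adjusted p of 0.05. The partners and corepressors have 10 falls among 16 genes, among them that of KDM1A, the target of the siRNA. The cadherin cleavage genes have 4 rises among 8. Over all genes 21.3% fell and 19.8% rose, and no list was tested as a set.

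The genes whose profile over the 6 arrays was most like that of SNAI2 and ZEB2, the member genes with the largest changes among the 7 tested, were found by the Euclidean distance between centred log2 values among 13821 other genes. For SNAI2 these were TSPAN13 (distance 0.099), ZBTB41 (0.12) and SPANXB1 (0.13), with log2 changes of 0.98, 0.97 and 0.96. SPANXB1 has near-identical family copies, so its signal is uncertain as to gene. For ZEB2 they were RNF149 (0.086), CMTM3 (0.090) and CCDC186 (0.098), with log2 changes of 0.82, 0.88 and 0.78; CMTM3 was at 0.37 averaged over its sets (limma adjusted p = 0.0534). Neither SNAI2 nor ZEB2 was among the 3 nearest of the other.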

How the data were processed

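The data are MAS5 signal intensity values on a linear scale, deposited by the authors, for 54675 probe sets on 6 arrays made from 2.5 ug of total RNA each. The submitters' processing notes list MAS5, GCOS and Expression Console 1.1 as tools; the mean after trimming 2% at each end is 500.1 on every array, so only relative changes are seen. Of the probe sets, 41097 have 1 symbol. Values were taken as log2(signal + 15), 15 being the 25th percentile of all signals, which understates changes of dim sets. The genome build of the files is not given in the sources used here; sequences are from RefSeq.

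The comparison used limma 3.58.1 under R 4.3.3 (lmFit, eBayes with an intensity trend, no covariate), over 27079 probe sets and over 13822 genes. Standard errors of log2 changes had a median of 0.14 over probe sets; the number of arrays limits precision. In a simulation of the probe set comparison over 27079 sets, 2, 17, 24 and 40 of 50 changes of 1.25, 1.5, 2 and 3-fold were recovered, with 4 false calls. Only 50 sets were changed there at each fold, whereas 9310 sets passed in the data. The Benjamini-Hochberg cutoff depends on that number, so the recovered counts do not give the sensitivity of the comparison made here. Same-numbered arrays were not paired in the fit, since the labels state no pairing. Their deviations correlated at 0.04, -0.00019 and 0.04, and those of differently numbered arrays at -0.045 to 0.012. These values cannot show whether the arrays were run as pairs. Named are all members, KDM1A, up to 4 genes of each list with the largest change past the threshold, and the 3 nearest profiles. Others named (CTBP1, CTBP2, EPCAM, OCLN, TJP3, OVOL1, GRHL1, ESRP1, KRT18, DSP, TAGLN, SPARC, AFDN, CTNNA1, CTNNB1, ADAM10, the other EMT-linked factors and the markers) were picked with their values in view. The members and lists were chosen with earlier results of these data known. Alternatives were the constant (1, 60), the filter (60th percentile, none), quantile normalization, median centring, no trend, an unmoderated test, a replicate block, each array left out and the mean of all probe sets. Figures used matplotlib 3.10.9.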

Additional observations from a re-analysis of the deposited data

How the results depend on the processing

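The count past the threshold ran from 6249 to 9548 over all probe sets and from 4255 to 5732 over all genes. Of the single values under an alternative, 856 kept direction and side of the threshold, 53 lost the call, 6 gained it and 6 turned direction. The 6 were LMNA, at 0.043 with the mean of all probe sets, and 5 values of sets that passed in neither case: 3 of CDH11 239286_at (0.069 and 0.0016 when control replicate 1 or 3 was left out, 0.064 when LSD1 siRNA replicate 3 was), and 1 each of ZEB1 239952_at (0.038) and ZEB2 228333_at (0.047), again on leaving out LSD1 siRNA replicate 3. With each array left out in turn these sets ran from -0.25 to 0.069, from -0.48 to 0.038 and from -0.30 to 0.047. Of the member probe sets, 2 rose and 2 fell. Without each array in turn the number higher ran from 2 to 4 and the number lower from 1 to 2. Without control replicate 3 the 2 lower were not the same sets: VIM 201426_s_at passed (limma adjusted p = 0.00694) and CDH11 207172_s_at did not (limma adjusted p = 0.0874). The number lower was 1 with no filter, in the unmoderated test and with the replicate block, and 3 with no intensity trend, the added one being CDH11 236179_at (adjusted p = 0.0483); the cause was not tested. Of member genes, 1 fell, namely CDH11. This count was 0 with no filter and in the unmoderated test, and 0 to 1 without each array in turn. Without control replicate 3 the 1 gene was VIM (limma adjusted p = 0.00620), and CDH11 did not pass (limma adjusted p = 0.0784). With the mean of all probe sets, 1 member gene rose in place of 2. The replicate block gave 3 member sets higher, the added one being ZEB1 212758_s_at (limma adjusted p = 0.0181), and put CDH11 207172_s_at at 0.0512. Whether same-numbered arrays are pairs is not settled by the labels or the correlations. The signals carry no detection calls, and dim sets, such as that of SNAI1, have wide intervals.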

Other observations

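ZEB1-AS1, a long noncoding RNA gene named as antisense to ZEB1, has 1 probe set (229090_at), chosen after its values were seen. It read 186, 191 and 169 with control siRNA and 82.8, 90.3 and 73.0 with LSD1 siRNA, without overlap. Its mean went from 182 ± 11.3 to 82.0 ± 8.70 (SD, n = 3), or -1.02 ± 0.17 in log2 units (standard error; limma adjusted p = 0.000619), while no ZEB1 set fell past the threshold.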
